A study of Mus musculus with 3 samples.

Results

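Of the 23361 genes in the deposited tables, 10 genes of hepatic nitrogen metabolism are described here. They were chosen by gene symbol, with earlier results of these data known. Of these, 8 are known as periportal: Cps1, Otc, Ass1, Asl and Arg1, which encode the enzymes of the urea cycle, Nags, which makes the activator of the first enzyme, and Gls2 and Hal, which release ammonia from glutamine and histidine. The other 2, Glul and Oat, are known as pericentral. All 10 genes were found, all carried the status OK in every library, and all 10 passed the filter on low values.

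The data are mRNA profiles of livers from C57BL/6J mice aged 8 to 10 weeks and labelled male, with 1 library for each of 3 groups. All mice were fasted before surgery and had a laparotomy under chloral hydrate. The sham group had no occlusion. In the warm ischemia (WI) group, the vessels to the left and median lobes were clamped for 1.5 h, and in the ischemia followed by reperfusion (IR) group the same clamping was followed by 2 h of reperfusion. Sham livers were taken after the length of the ischemia, so no sham library matches the IR library in time. Levels are given as FPKM, which scales fragments by transcript length and by the mapped fragments of a library, with the lower and upper 95% bounds that Cuffdiff assigned. These bounds come from Cuffdiff's model of the counts. With 1 library per group they do not measure the variation between mice of a group. The number of fragments behind each gene's value is unknown, since no counts came with the deposited values. The paper gives the read pairs of each library, with a lower share uniquely aligned in IR than in sham or WI. With no replicates, no test between groups was possible, and every value below describes 3 libraries. Since whole liver was sequenced, fewer cells of a zone and less mRNA per cell cannot be told apart.

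Some facts of the libraries touch all results. Xist, the RNA of the inactive X chromosome, had an FPKM of 18.9 in the sham library, 20.1 in WI and 1.29 in IR, while the 4 Y-linked genes Ddx3y, Uty, Kdm5d and Eif2s3y summed to 0, 0.00849 and 23.7. These values go against the label male for the libraries labelled sham and WI. In both comparisons with IR, sex therefore cannot be told apart from reperfusion, and only WI against sham is free of this difference. Of 12 hepatocyte markers, 11 were detected with sums of 44241, 44217 and 65045 FPKM, while Alb is listed at 0 in all libraries because its locus held too many fragments to be processed. Markers of other cells differed as well: the 9 neutrophil markers found, of 10 listed, summed to 25.9, 19.6 and 462 FPKM, with Elane at 0 in WI and Mpo at 0 in IR. The 10 macrophage markers summed to 502, 258 and 173 FPKM and the 5 erythroid markers found to 751, 518 and 1976, with none at 0 in any library, and the part of these cells in the results below was not tested. The FPKM of all genes summed to 475754, 487912 and 712423. Bringing the libraries to a common sum lowers the log2 ratio of FPKM by 0.58 in IR against sham and by 0.55 in IR against WI, and low genes shift by less on the scale of log2(FPKM + 1). The median of all genes goes from 0.05 to -0.40 in the first and from 0.03 to -0.40 in the second. Ratios of 2 genes inside a library do not depend on this choice.

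The liver disposes of ammonia by a pair of systems laid out along the path of the blood. Hepatocytes around the portal vein take up most of the ammonia and turn it into urea at high capacity, and a thin layer of hepatocytes around the central vein catches what escapes by building it into glutamine. The urea cycle starts in mitochondria, where carbamoyl phosphate is formed and joined to ornithine, and goes on in the cytosol until arginase releases urea and returns ornithine. Pericentral genes such as Glul depend on Wnt signals from the central vein.

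Among the members, the sequence of Ass1 decides how its values can be read. The Ass1 transcript of GENCODE matched a copy on chromosome 10 of NCBIM37, from 61533764 to 61535357, over 1596 aligned bases with 99.2% identity. The copy is annotated as the pseudogene Gm5424. In the coding part, 6 of 1239 aligned bases differed. The following stretch, from base 370 to base 429 of the coding sequence, is shown because it is the first window of 60 bases with the most differences, which are given in capitals.
Ass1: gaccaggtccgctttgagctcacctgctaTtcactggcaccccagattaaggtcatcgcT
Gm5424: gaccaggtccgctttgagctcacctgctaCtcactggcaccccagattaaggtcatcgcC

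Only 2 of the 60 bases tell both apart. Glul matched 3 places elsewhere in the genome at 90% identity or more over at least 300 bases. The longest of them, the pseudogene Glns-ps1 on chromosome 11 of NCBIM37 (19620226 to 19621579), had 95.7% identity over 1363 aligned bases, which is 48.6% of the transcript. For the other 8 members no such copy was found.

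Promoter sequences from RefSeq (build GRCm38.p6, which is mm10) were at hand for 6 members, Otc, Ass1, Nags, Hal, Glul and Oat. The last 120 bases before the start site are shown for both pericentral genes and for Hal, the member with the largest difference in WI. Capitals mark matches, on either strand, to the motifs searched. These were the TATA box TATAAA, the NF-Y core CCAAT, the core TGACG of CREB sites, the C/EBP core TTGCNNAA, the core CTTTGA of TCF and LEF sites, the core AGAACA of glucocorticoid receptor sites, the core CAAAGT of HNF4A sites and the nuclear receptor core AGGTCA. Matches to different motifs may overlap.
Glul, chr1:153899809-153899928, plus strand: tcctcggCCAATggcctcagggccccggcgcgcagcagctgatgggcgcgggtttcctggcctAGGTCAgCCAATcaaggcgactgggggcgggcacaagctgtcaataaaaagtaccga
Oat, chr7:132576399-132576518, minus strand: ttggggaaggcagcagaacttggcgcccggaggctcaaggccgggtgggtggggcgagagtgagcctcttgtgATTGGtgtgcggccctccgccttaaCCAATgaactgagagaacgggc
Hal, chr10:93488648-93488767, plus strand: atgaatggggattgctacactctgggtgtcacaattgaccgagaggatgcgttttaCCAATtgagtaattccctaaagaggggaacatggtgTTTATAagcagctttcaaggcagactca

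Glul had 2 matches to CCAAT, which begin 113 and 50 bases before the start, and Oat had 2, at 47 and 22 bases. Hal had 1 match to CCAAT at 64 bases and 1 to TATAAA at 28 bases. Shares of all promoters were counted in the whole RefSeq window of 300 bases around the start, longer than the stretches shown, for 27025 genes. CCAAT was found in 37.9% of them and TATAAA in 14.2%. In this window, CTTTGA matched in Nags and Hal (16.2% of all promoters), TGACG in Nags and Oat (21.0%), AGGTCA in Nags and Glul (16.0%), and TTGCNNAA in Hal (10.8%). AGAACA (19.0% of all promoters) and CAAAGT (14.3%) matched in 0 of the 6, and Otc and Ass1 had no match to any motif. These matches describe letters in a window and not bound sites.

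Within each library the members spanned a wide range of levels. In the sham library Arg1 was the highest and Nags the lowest, with 981 against 21.7 FPKM. Their ranks among all genes were 68 and 2259. Of the 45 pairs of members, 13 had bounds that did not overlap in sham, 9 in WI and 9 in IR, and all but 1 of these pairs, Arg1 and Gls2 in sham, held Nags or Hal. Of the 9 neighbours in the order of levels, 8 overlapped in sham, 8 in WI and 9 in IR. The order among the abundant members is therefore not resolved.

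**Figure D1:**
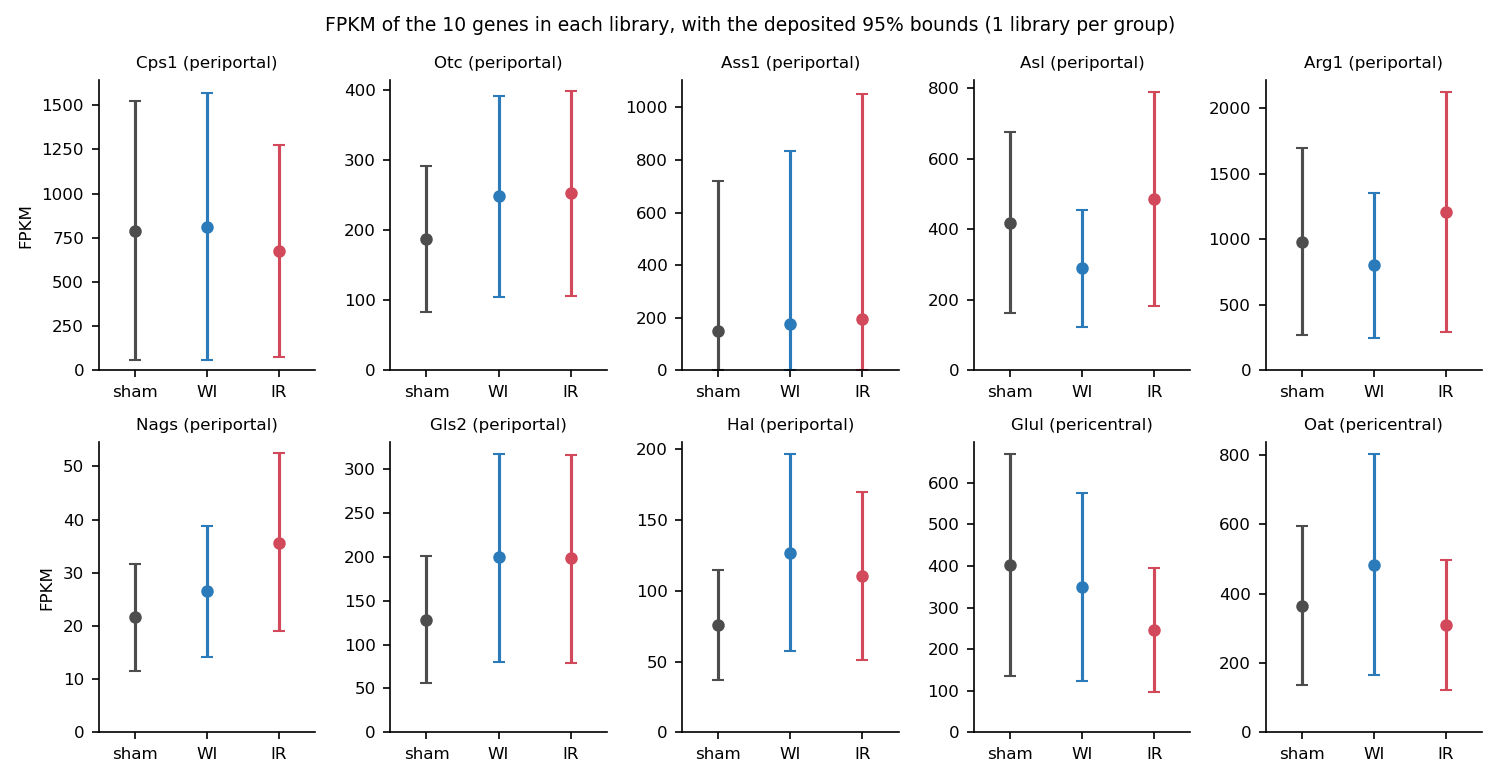
FPKM (y axis, linear from 0) of the 10 genes in the sham, WI and IR libraries, with bars from the lower to the upper 95% bound deposited for each library (1 library per group). The bars of all 3 libraries overlap for every gene, and those of Ass1 reach down to 0.

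The members were compared between the libraries first as deposited. On the scale of log2(FPKM + 1), which is used for all differences below, 0 of the 10 members differed by 2-fold or more in any comparison. With a common sum, Glul (-1.05) and Oat (-1.18) passed 2-fold in IR against WI, and Glul (-1.28) in IR against sham. That scaling brings the median of all genes to -0.40 in both comparisons, and the share of all genes past 2-fold under it is not given. As deposited, of all 10792 genes that reached an FPKM of 1 in any library, 1.85% passed 2-fold in WI against sham, 7.21% in IR against WI and 7.50% in IR against sham. The 95% bounds of 0 members failed to overlap in any comparison, where the share of all genes was 0.676%, 3.61% and 3.82% in the same order.

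At a lower threshold of 1.5-fold, in WI against sham, Gls2 and Hal were higher past it (2 of 10 members, with 3.14% of all genes) and 0 members were lower (4.27% of all genes). In IR against WI, Asl and Arg1 were higher (2 of 10, with 12.4% of all genes) and Oat was lower (1 of 10, with 7.40%). In IR against sham, Nags and Gls2 were higher (2 of 10, with 14.3%) and Glul was lower (1 of 10, with 9.49%). Among the 2543 genes whose mean FPKM reached 20, a level that all members exceed, the shares past 1.5-fold were 5.70% higher and 5.23% lower in WI against sham. They were 15.1% higher and 6.76% lower in IR against WI, and 22.7% higher and 6.25% lower in IR against sham. In the comparisons with IR the count of higher members thus lay near the share of equally abundant genes.

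Cps1, carbamoyl phosphate synthetase, fixes ammonia in the first step of the urea cycle. It lies on chromosome 1 of mm10 from 67123066 to 67230448. Its FPKM was 790.1 in the sham library (95% bounds 55.8 to 1524), 811 in WI (54.9 to 1568) and 677 in IR (76.7 to 1278). As deposited, the log2 difference was 0.04 in WI against sham, -0.26 in IR against WI and -0.22 in IR against sham. The first of these has the opposite sign after rescaling to a common sum or by the median ratio. With a common sum Cps1 was further below WI and sham in IR, with -0.81 and -0.80. The bounds were wide, with a coefficient of variation of 47.4% in sham, so a ratio of IR to sham between 0.237 and 3.10 lies within the 95% interval computed from them.

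Otc, ornithine transcarbamylase, forms citrulline in the mitochondria and lies on chromosome X from 10252359 to 10321024. It had an FPKM of 187 in sham (82.8 to 291), 248 in WI (105 to 391) and 252 in IR (106 to 398). It was higher in WI and IR than in sham, by 0.41 and 0.43, and WI and IR lay 0.02 apart. The interval of the ratio of WI to sham ran from 0.596 to 2.96. Rescaled to a common sum, IR against sham turned negative.

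Ass1, argininosuccinate synthetase, joins citrulline and aspartate. The files place it on chromosome 2 from 31470270 to 31520670, and they give Gm5424 exactly the same locus, although RefSeq places this pseudogene on chromosome 10 (62071022 to 62072571 in GRCm38.p6). Ass1 had an FPKM of 148 in sham (0 to 722), 176 in WI (0 to 836) and 193 in IR (0 to 1052), with lower bounds of 0 throughout. Gm5424 had an FPKM of 1528 in sham (67.7 to 2989), 1552 in WI (150.1 to 2954) and 1997 in IR (0 to 3997), under the status LOWDATA. Ass1 thus held only 8.81%, 10.2% and 8.81% of the FPKM given to both, and the division of the fragments between them is uncertain. The sum of both was 1676 in sham, 1728 in WI and 2189 in IR, above the FPKM of every other member in each library. The log2 difference of IR against sham was 0.38 for Ass1 and 0.39 for the sum. Between WI and sham it was 0.25 for Ass1 and 0.04 for the sum, so the value for Ass1 alone depends on the division. Rescaled to a common sum, Ass1 was lower in IR than in sham and in WI.

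**Figure D2:**
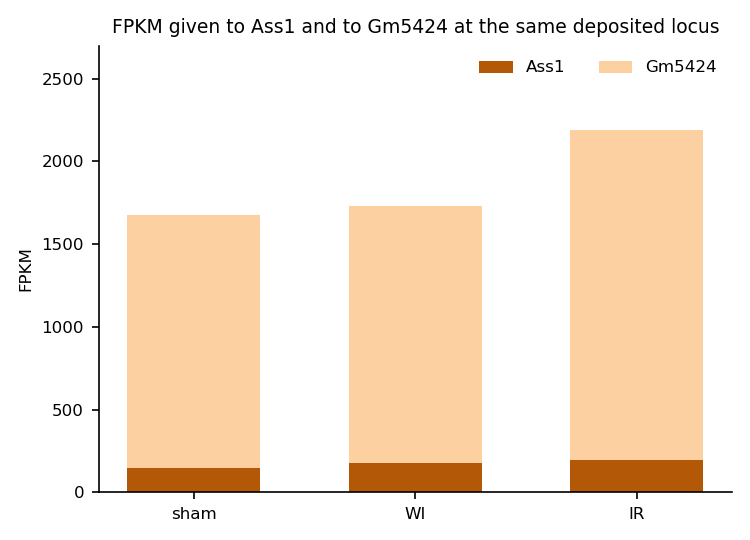
FPKM (y axis, linear from 0) given to Ass1 (dark) and to the pseudogene Gm5424 (light) in the sham, WI and IR libraries, stacked. Ass1 holds between 8.81% and 10.2% of the summed FPKM, which is 1676, 1728 and 2189.

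Asl and Arg1 carry out the last steps, in which argininosuccinate lyase releases arginine and arginase 1 splits it into urea and ornithine. Asl lies on chromosome 5 from 130011503 to 130024331, and its FPKM was 419 in sham (163 to 675), 289 in WI (122 to 455) and 485 in IR (181 to 790.0). Arg1 lies on chromosome 10 from 24915207 to 24927470, and its FPKM was 981 in sham (270.0 to 1692), 802 in WI (249 to 1355) and 1206 in IR (292 to 2121). Both were lowest in WI and highest in IR, unlike the other urea cycle genes. Asl was 0.54 lower in WI than in sham on the log2 scale, a value with 5.09% of all genes below it, and 0.75 higher in IR than in WI. For Arg1 the differences were -0.29 and 0.59. The interval of the ratio of IR to WI ran from 0.717 to 3.94 for Asl and from 0.540 to 4.19 for Arg1, so equal levels lie within both. Rescaled to a common sum, both remained higher in IR than in WI and were lower in IR than in sham. The ratio of Asl to Arg1 inside a library, 0.427 in sham, 0.360 in WI and 0.402 in IR, varied little.

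Nags, N-acetylglutamate synthase, supplies the activator without which Cps1 does not work. It lies on chromosome 11 from 102145513 to 102149528. Its FPKM was 21.7 in sham (11.6 to 31.7), 26.5 in WI (14.2 to 38.8) and 35.7 in IR (19.0 to 52.5). It was the lowest member in every library. IR exceeded sham by 0.70, the largest difference of the 8 periportal members in that comparison, with an interval of the ratio from 0.854 to 3.19. This difference kept its sign after every rescaling, whereas IR against WI (0.42) turned negative with a common sum.

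Gls2, the liver glutaminase, releases ammonia from glutamine beside the urea cycle. The files give it on chromosome 10 from 128194635 to 128211794, a locus shared with Spryd4. Gls2 had an FPKM of 128 in sham (55.7 to 201), 199 in WI (79.7 to 317) and 198 in IR (79.4 to 316). It was higher in WI and IR than in sham, by 0.63 and 0.62. With a common sum the value in IR was only 0.04, and that in WI 0.59. As deposited, 97.4% of all genes had a smaller value than Gls2 in WI against sham. The interval of that ratio ran from 0.679 to 3.53. Spryd4 had an FPKM of 14.2, 14.7 and 15.0, near the same level in all libraries.

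Hal, histidase, opens the breakdown of histidine by splitting off its ammonia, and lies on chromosome 10 from 93488768 to 93516743. Its FPKM was 76.1 in sham (37.0 to 115), 127 in WI (57.2 to 197) and 110.4 in IR (50.9 to 169.9). With 0.73 it had the largest difference of all members in WI against sham, above 98.3% of all genes, and the interval of the ratio ran from 0.786 to 3.55. In IR it stood 0.53 above sham, which turned negative with a common sum. The enzymes after it on the same route did not all follow. Amdhd1 had an FPKM of 34.4, 71.9 and 82.3 (1.04 in WI and 1.23 in IR against sham). For Uroc1 the differences were 0.23 and 0.14, and for Ftcd 0.13 and 0.60.

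Glul, glutamine synthetase, binds ammonia to glutamate in the pericentral layer. It lies on chromosome 1 from 153899945 to 153909714. Its FPKM was 402 in sham (135 to 669), 350.1 in WI (124 to 576) and 247 in IR (97.5 to 396). The level was lowest in IR, 0.50 below WI and 0.70 below sham, and only 6.10% of all genes had a lower value in IR against sham. Its rank among all genes went from 179 in sham to 227 in WI and 407 in IR. The ratio of IR to WI was 0.705 with an interval from 0.291 to 1.71, and the bounds of all 3 libraries overlapped.

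Oat, ornithine aminotransferase, takes ornithine out of the cycle toward glutamate and is pericentral in mouse liver. It lies on chromosome 7 from 132557475 to 132576398. Its FPKM was 365 in sham (137 to 594), 483 in WI (164 to 802) and 310.2 in IR (122 to 498). Unlike Glul it was higher in WI than in sham, by 0.40. From WI to IR it was 0.64 lower, a value with 6.00% of all genes below it, with an interval of the ratio from 0.262 to 1.57. Both pericentral members were thus lower in IR than in WI and in sham as deposited. Every other scaling tried lowers IR further, so none of them could turn these signs.

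**Figure D3:**
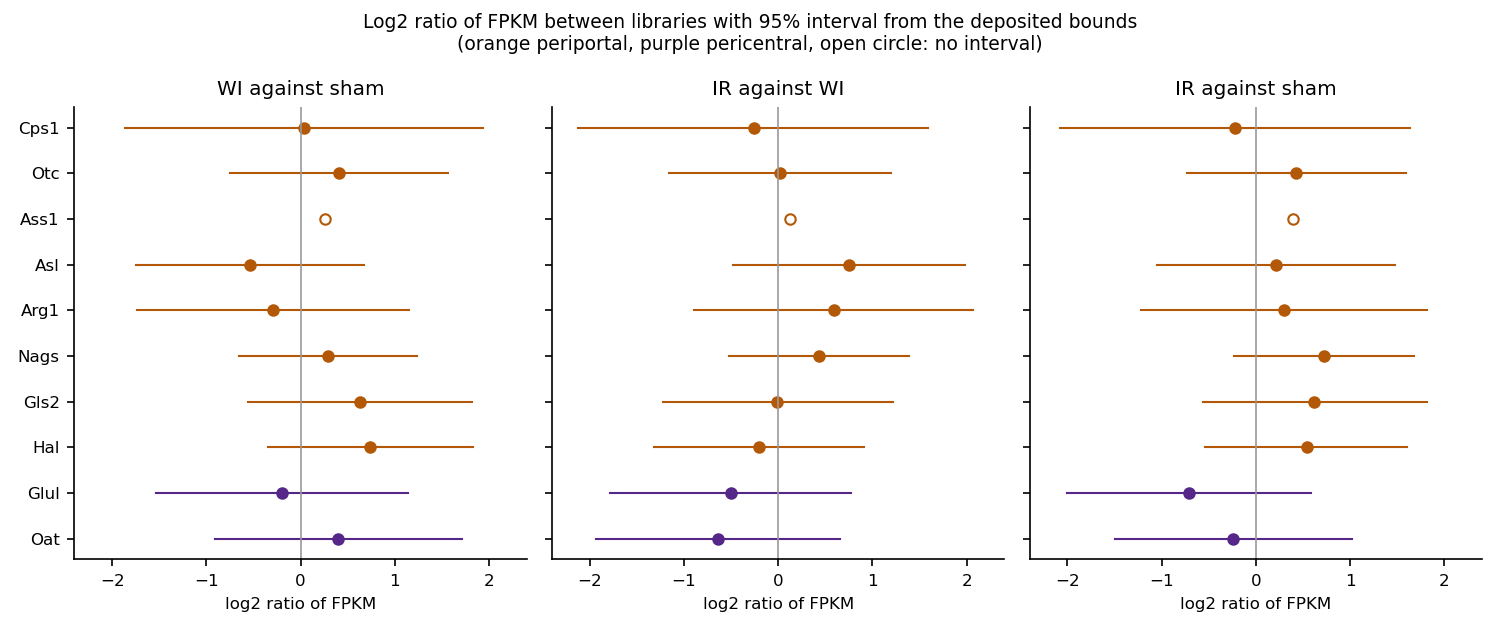
Log2 ratio of FPKM (x axis) for each gene in WI against sham, IR against WI and IR against sham, with the 95% interval computed from the deposited bounds (lines, orange for periportal and purple for pericentral). Every interval includes 0, both pericentral points lie left of 0 in both comparisons with IR, and Ass1 has no interval because its lower bounds are 0.

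The zones were compared by their medians. The 8 periportal members had a median log2 difference of 0.27 in WI against sham, 0.08 in IR against WI and 0.41 in IR against sham, beside 0.02, 0.03 and 0.05 over all genes tested. With Ass1 and Gm5424 summed, the first of the periportal medians was 0.16. Over the 2543 abundant genes the medians were 0.10, 0.18 and 0.29. Against these, 5, 3 and 6 of the 8 periportal members lay higher. The 2 pericentral members had medians of 0.10, -0.57 and -0.47. The periportal medians in the comparisons with IR changed sign with a common sum (-0.47 and -0.17). Those of the pericentral members were -1.11 and -1.05, and they could not turn positive, since this scaling lowers IR.

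Ratios of a periportal to a pericentral gene inside 1 library are free of the scaling. All 16 such ratios were higher in IR than in WI, by 1.18-fold to 2.62-fold with a median of 1.57-fold. All 16 were also higher in IR than in sham, by 1.01-fold to 2.69-fold with a median of 1.85-fold. These ratios share 2 denominators, so they are not independent of each other. In IR against WI only 10.3% of all genes had a lower value than Glul and 6.00% a lower value than Oat. In IR against sham these shares were 6.10% and 27.5%. Most genes, periportal or not, would therefore give higher ratios over them, so the count of 16 does not set the zones apart. Between WI and sham, 6 of 8 ratios over Glul and 3 of 8 over Oat were higher.

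Some ratios pair genes with opposed roles. Gls2 over Glul, use over synthesis of glutamine, was 0.319 in sham (95% interval from the bounds 0.133 to 0.762), 0.567 in WI (0.235 to 1.37) and 0.801 in IR (0.342 to 1.87). It was 1.78-fold higher in WI than in sham and 1.41-fold higher in IR than in WI, and the fold of IR over sham was 2.51 with an interval from 0.743 to 8.50. Otc over Oat, the pair that competes for ornithine, was 0.511 in sham, 0.513 in WI and 0.812 in IR, so sham and WI lay close together. Cps1 over Glul, the pair that fixes ammonia, was 1.96, 2.32 and 2.74. The largest fold of IR against sham was that of Nags over Glul, with 0.0538 in sham and 0.145 in IR. Of the 14 ratios with an interval, 0 had one in IR that was separate from that in sham.

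**Figure D4:**
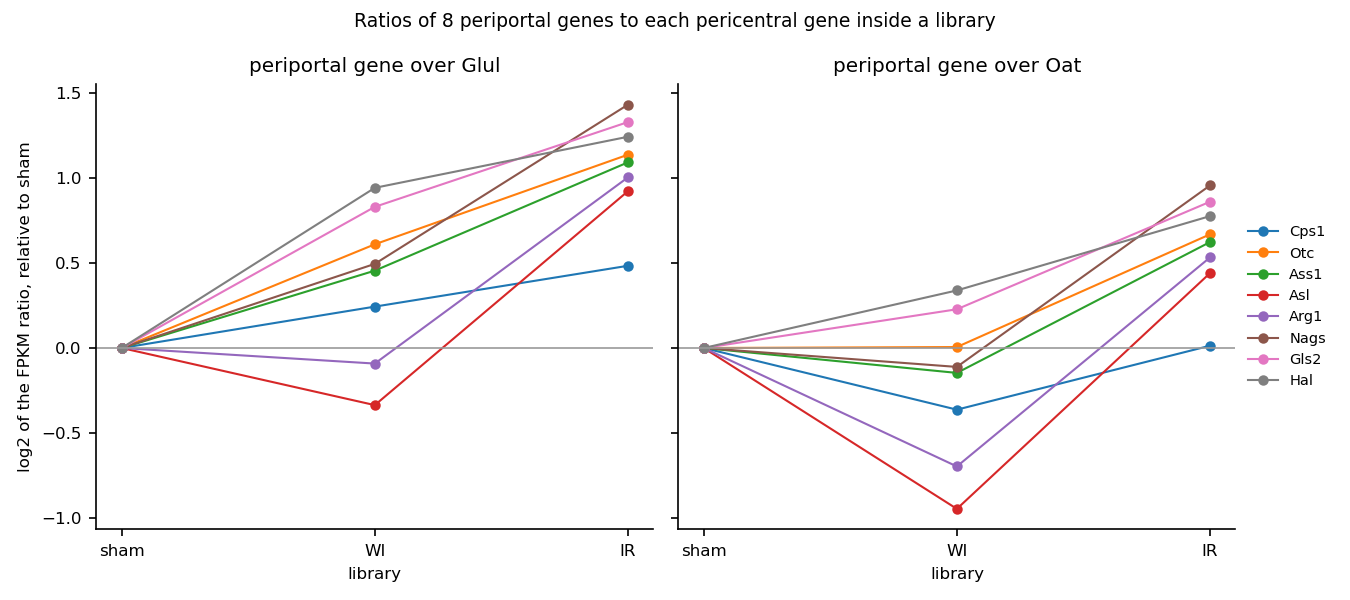
Log2 of the FPKM ratio of each of 8 periportal genes over Glul (left) and over Oat (right), relative to the sham library (y axis), in the sham, WI and IR libraries. All 16 lines end above their WI value, and in WI the lines over Oat spread from 0.521-fold to 1.26-fold of sham.

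Other landmark genes of the zones, from lists written from general knowledge, were examined next, without the members. Of 38 further pericentral genes, 36 passed the filter. From WI to IR their median was -0.52, with 30 of 36 lower, where 47.5% of all genes were. Of the 36, 13 (36.1%) were lower by 1.5-fold or more, where 7.40% of all genes were. In turn 0 of the 36 were higher by as much, against 12.4% of all genes. The counts of lower genes hold Axin2 and Lgr5, which passed the filter only through WI, where they are highest. Against sham, IR was lower for 29 of 36, where 45.6% of all genes were, with a median of -0.29. Of the 36, 9 (25.0%, with 9.49% of all genes) passed 1.5-fold. In WI against sham the list lay on the other side, with 26 of 36 higher, where 52.5% of all genes were, and a median of 0.22. The 26 also hold Axin2 and Lgr5. Past 1.5-fold, 7 (19.4%, with 3.14% of all genes) were higher. Among abundant genes only (mean FPKM of at least 20), 6 of 21 pericentral genes (28.6%, with 6.76% of all abundant genes) were lower past 1.5-fold in IR against WI. Axin2 and Lgr5 are not among these 21. The 22 further periportal genes had medians of -0.01 in WI against sham, 0.19 in IR against WI and 0.27 in IR against sham. Of the 22, 10, 14 and 16 were higher, where 52.5%, 52.4% and 54.4% of all genes were. Among abundant genes, 12 of 20 periportal genes were higher in IR against WI, where 65.5% of all abundant genes were. In IR against sham 14 of 20 were higher, where 72.2% were. Their medians of 0.09 and 0.25 lay below the 0.18 and 0.29 of all abundant genes. The higher periportal values in IR thus do not set this list apart from other abundant genes. After rescaling to a common sum, 36 of 36 pericentral and 15 of 22 periportal genes were lower in IR than in WI. Their medians were -0.96 and -0.36, beside -0.40 over all genes. The pericentral median stayed below the periportal median, but a rescaling shifts both lists nearly alike and cannot test this gap.

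The pericentral list holds genes of the Wnt response, which differed in size. Axin2, a feedback inhibitor of Wnt signaling, had an FPKM of 0.843 in sham (0.330 to 1.36), 1.27 in WI (lower bound 0.554) and 0.153 in IR (0.0314 to 0.275). Tbx3, a transcription factor induced by Wnt, had 2.37 (1.04 to 3.70), 4.31 (2.11 to 6.50) and 0.972 (0.397 to 1.55). Lgr5, a receptor for R-spondins, had 0.794 (0.303 to 1.29), 1.62 (0.731 to 2.52) and 0.383 (0.118 to 0.648). For these 3 of the 36 genes the bounds of IR and WI did not overlap (3.61% of all genes), with log2 differences of -0.98, -1.43 and -0.92. Axin2 and Lgr5 passed the filter only through WI, where they are highest, so their lower values in IR are given as a description. The count of 3 therefore cannot be read against the share of all genes. Of the 3, only Tbx3 passed the filter through sham as well. Rnf43, which removes Wnt receptors, had 5.51 FPKM in WI and 2.20 in IR, a difference of -1.02. Znrf3, Notum, Nkd1 and Tcf7 of the same list, named after their values were seen, differed less between IR and WI, with -0.55, -0.33, -0.32 and -0.11. All of these levels were low.

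The pericentral genes that handle ammonia and glutamate with Glul differed in size. Slc1a2, the glutamate transporter of the cells that express Glul, had an FPKM of 54.0 in sham (9.73 to 98.3), 45.8 in WI (10.00 to 81.6) and 16.9 in IR (4.55 to 29.3). Its difference of -1.62 in IR against sham was larger than that of Glul. Rhbg, an ammonia channel, had 6.64, 9.42 and 6.09 FPKM and was near sham in IR (-0.11).

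The 4 pericentral cytochromes that follow were lower in IR than in WI. Cyp27a1 of the same list, named after its values were seen, was 0.53 higher. Cyp2e1, an ethanol-inducible cytochrome, had 4782, 3718 and 3139 FPKM with lower bounds of 0. Cyp1a2 had 291, 389 and 248 FPKM. Cyp2c37 and Cyp7a1, the latter the first enzyme of bile acid synthesis, differed by -1.05 and -1.31 between IR and WI. Cyp2f2, a periportal cytochrome, had 359.6 FPKM in sham (143 to 576), 442 in WI (166 to 719) and 771 in IR (231 to 1311), a difference of 1.10 from sham to IR. Cdh1, the periportal cadherin, had 5.40 FPKM in sham (2.87 to 7.93), 8.80 in WI (4.73 to 12.9) and 22.4 in IR (11.7 to 33.1), and its bounds in IR and sham did not overlap. The periportal list was not uniform, since G6pc, glucose-6-phosphatase, had 335, 152 and 78.1 FPKM, which is -2.09 in IR against sham. Its bounds in IR and sham did not overlap either. Cdh1 and G6pc, which differed in opposite directions, were the only 2 of the 22 periportal genes with such bounds (3.82% of all genes). Fasn, fatty acid synthase, had the largest difference of the pericentral list in WI against sham (1.58), with 24.3, 74.3 and 31.9 FPKM.

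**Figure D5:**
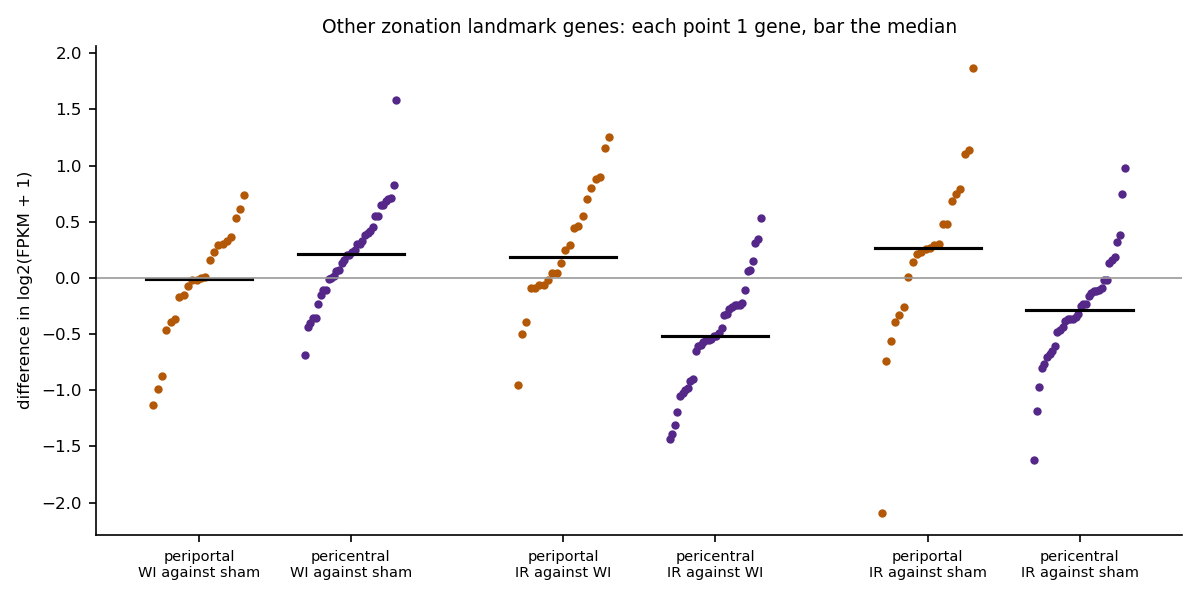
Difference in log2(FPKM + 1) (y axis) of 22 further periportal (orange) and 36 further pericentral (purple) genes in each comparison, each point 1 gene and each bar the median. The pericentral median lies at 0.22 in WI against sham, -0.52 in IR against WI and -0.29 in IR against sham. The periportal median lies at -0.01, 0.19 and 0.27 in the same order. Among abundant genes only, the periportal median in IR against sham was 0.25, beside 0.29 over all abundant genes.

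The partners of the urea cycle were compared in the same way. Of 16 listed genes 15 passed the filter. Only Got1, cytosolic aspartate aminotransferase, passed 2-fold, in WI against sham (with 1.85% of all genes) and in IR against WI (with 7.21%). A count of 1 of 15 cannot set the list apart from all genes. Got1 had 339.6 FPKM in sham (133 to 546), 143 in WI (66.5 to 219) and 300.1 in IR (121 to 479.5). It was lowest in WI, as were Asl and Arg1, but in IR it stayed 0.18 below sham. Car5a, the mitochondrial carbonic anhydrase that supplies bicarbonate to Cps1, had 37.9, 62.5 and 39.9 FPKM, so it was high in WI only. The ornithine carrier Slc25a15 had 88.8, 82.0 and 89.9 FPKM, and glutamate dehydrogenase Glud1 had 334, 353 and 305. Slc25a13, the mitochondrial aspartate carrier citrin, was 0.58 lower in IR than in sham.

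Among genes that use arginine and ornithine outside the cycle, 10 of the 14 that passed the filter were higher in IR than in WI, where 52.4% of all genes were, with a median of 0.34. With a common sum the median was -0.20, beside -0.40 over all genes, with 6 of 14 higher. Of the 14, 4 (with 12.4% of all genes) were higher by 1.5-fold or more, which includes Arg2. Among abundant genes these were Odc1 and Sat1 of 7 (with 15.1% of all abundant genes). Odc1, ornithine decarboxylase, had 26.8 FPKM in sham (14.3 to 39.3), 24.0 in WI (12.8 to 35.1) and 70.8 in IR (35.3 to 106), and its bounds in IR and WI did not overlap. Sat1, which acetylates polyamines, had 84.2, 61.3 and 463 FPKM, with a difference of 2.90 in IR against WI, the widest of the list, and bounds that did not overlap. Srm, spermidine synthase, was 1.38 higher in IR than in sham. Arg2, the arginase of other tissues, had 0.364, 0.103 and 3.12 FPKM with lower bounds of 0, far below Arg1, and passed the filter only through IR. The neutrophil markers stand higher in the same library, and their part in these values was not tested.

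Genes of amino acid breakdown were set beside all genes and beside abundant genes. Of 46 genes that passed the filter, 36 were higher in IR than in sham, where 54.4% of all genes were, with a median of 0.22. With a common sum the median was -0.36, beside -0.40 over all genes, with 11 of 46 higher. Among the 39 abundant genes of the list, 8 (20.5%, with 22.7% of all abundant genes) were higher by 1.5-fold or more, and the median of 0.16 lay below the 0.29 of all abundant genes. The genes past 2-fold belong to several routes. Cbs, which opens transsulfuration, had 67.3, 119.5 and 173 FPKM, and Bhmt, which remethylates homocysteine, had 813, 857 and 2161. Sdsl, a serine dehydratase-like gene, had 6.38, 6.27 and 15.3 FPKM. Asns, asparagine synthetase, was near 0 in sham and WI (0.0649 and 0.176 FPKM) and had 4.34 in IR (1.99 to 6.70), and it passed the filter only through IR. In the list of glutamine and ammonia handling, 17 of 24 genes passed the filter. Their median in IR against WI was -0.24, with 6 of 17 higher, where 52.4% of all genes were. The lower genes hold Slc1a4, which passed the filter only through WI, where it is highest. With a common sum the median was -0.59, beside -0.40 over all genes, with 2 of 17 higher. Slc3a2, a subunit of amino acid exchangers, and Slc25a22, a mitochondrial glutamate carrier, were 1.27 and 1.08 higher in IR than in WI, whereas the arginine transporter Slc7a2 was 0.47 lower. The glutamine transporter Slc38a2 had 94.8, 50.5 and 63.5 FPKM.

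Known regulators of urea cycle genes were examined last. Of 25 that passed the filter, 7 (28.0%, with 12.4% of all genes) were higher and 5 (with 7.40% of all genes) lower by 1.5-fold or more in IR than in WI. Cebpd and Cebpb, which belong to the C/EBP factors, had 9.64, 3.20 and 32.8 FPKM and 158, 113 and 334 FPKM, both lowest in WI and highest in IR. Crem, Atf4 and Foxa3 were higher in IR than in sham by 1.69, 1.41 and 1.43. Ppara, the fatty acid receptor of fasting, had 41.2, 43.2 and 17.2 FPKM. Onecut1, also called Hnf6, had 9.88 FPKM in sham (5.08 to 14.7), 2.64 in WI (1.09 to 4.19) and 5.92 in IR (2.87 to 8.96). It was the only one of the 25 whose bounds in WI and sham did not overlap (0.676% of all genes). In IR against WI this held for Cebpd only (3.61% of all genes). In IR against sham it held for Cebpd and Foxa3 (3.82% of all genes). Dbp, a factor of the circadian output, was 1.27 higher in WI than in sham, with 49.7 FPKM in WI and 40.0 in IR.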

How the data were processed

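Reads were aligned by the authors to mm10 with TopHat2 2.0.9 at default parameters, and Cufflinks 2.0.2 is named for the later steps in the submitters' processing notes. The values deposited by the authors are FPKM per gene, with lower and upper bounds and a status as Cuffdiff writes them, read here as 95% bounds. Whether a library pools several mice is not given in the sources used here. The deposited starts count from 0 and are printed counted from 1.

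Differences were computed as log2(FPKM + 1) for 10792 of 23361 genes, those that reached an FPKM of 1 in any library. Intervals of ratios come from the upper bounds (delta method, factor 1.96) and hold Cuffdiff's model error only. None is given where a lower bound was 0. The calculation was tested on simulated data. Alternatives were 2 pseudocounts, filters, scalings and thresholds, and 5 more were chosen after seeing the data: a common sum without Mup genes, Ass1 with Gm5424, leaving out Ass1, and abundant genes as the comparison for members and for lists. Copies of members were searched with BLAST 2.17.0 in NCBIM37 and promoters taken from RefSeq. The members and lists were chosen with earlier results of these data known. Text names all members, list genes past 2-fold (at most 8 per list) and a fixed set of transporters, enzymes and landmarks. A gene that this rule names is not reported here. Uroc1, Ftcd, Cyp27a1, Znrf3, Notum, Nkd1, Tcf7 and Slc1a4 were added after their values were seen. Python 3.11.15, numpy 2.4.6, pandas 2.3.3 and matplotlib 3.10.9 were used.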

Additional observations from a re-analysis of the deposited data

Results flagged for a closer look

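The 4 Y-linked genes, which enter none of the comparisons, summed to an FPKM of 23.7 in the IR library and 0 in the sham library, a signal above the control in a library set whose labels all say male. No member lies on the Y chromosome. In WI the sum was 0.00849. Whether sex contributes to the lower Glul, Oat and pericentral genes in IR was not tested. The library with 23.7 FPKM of these transcripts is also the only one with reperfusion.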

How the results depend on the processing

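With pseudocounts of 0.1 or none, no member changed the sign of a difference. Rescaling by the median ratio turned Cps1 in WI against sham and Otc in IR against WI. Rescaling to a common sum gave 2 members past 2-fold in IR against WI and 1 in IR against sham, with periportal medians of -0.47 and -0.17 and pericentral medians of -1.11 and -1.05, and 3 and 5 of the 10 members changed sign. The median of all genes was -0.40 in both comparisons under this scaling. A common sum without the 20 Mup genes, chosen after seeing the data, gave 1 and 1 members, periportal medians of -0.30 and -0.01, and pericentral medians of -0.95 and -0.89. A threshold of 1.5-fold gave 2, 3 and 3 members in WI against sham, IR against WI and IR against sham. With Ass1 and Gm5424 summed, also chosen after seeing the data, the periportal median in WI against sham was 0.16. Leaving out replicates was not possible with 1 library per group, and no paired analysis was possible because no group holds more than 1 library.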
